A study of Homo sapiens with 6 samples.

Results

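Of the 3337 boundaries of topologically associated domains (TADs) called on the autosomes of control LNCaP cells, 1768 were also called after CTCF siRNA, a share of 53.0% (Wilson 95% interval 51.3 to 54.7%), and these maintained boundaries are the subject here. A TAD is a stretch of chromosome whose parts touch each other more often than they touch the sequence outside it, and its boundary is where contacts across drop. A control boundary was counted as maintained where a boundary of the CTCF siRNA list lay within 40 kb of it. In each list, facing edges of consecutive TADs at most 100 kb apart were joined into 1 boundary, and any other edge was a boundary of its own. The other 1569 control boundaries were lost by this rule, and 1019 of the 2783 CTCF siRNA boundaries had no control boundary within 40 kb and were gained. Of the CTCF siRNA list, 1764 boundaries lay within 40 kb of a control boundary.

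Contacts were measured by Hi-C: chromatin was fixed and cut with BglII, ends lying close together were ligated, and sequencing both ends of the joined molecules showed which places in the genome had touched. LNCaP is an established androgen-responsive prostate cancer cell line. Control cells received 20 nM of a non-targeting siRNA pool (2 libraries) and knockdown cells 20 nM of an siRNA pool against CTCF (4 libraries). The labels number these 4 as replicates 1 and 2, each with and without a suffix whose meaning is not stated, so they may come from fewer than 4 cultures. All cells were split and transfected again at 72 h and were collected at 144 h. The libraries of a condition had been pooled into 1 contact map and 1 TAD list, so no difference below can be set against the spread between replicates and no p-value is given. Intervals cover the number of boundaries or of contacts counted. A transient knockdown can leave some CTCF in the cells, and neither the amount of CTCF nor the expression of LNCaP marker genes can be read from contact maps. The control map held 13273387 contacts within autosomes and the CTCF siRNA map 55010556, and counting error at a single position was therefore larger in the control.

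CTCF is a zinc finger protein that binds a long, GC-rich DNA motif. It stops the cohesin ring while cohesin extrudes a loop of chromatin, and pairs of CTCF sites that point towards each other often mark the ends of a TAD. Other boundaries lie at clusters of active promoters, such as those of housekeeping genes, or at borders between active and silent chromatin. A boundary that is still called when CTCF is reduced may keep the CTCF it needs or may be of another kind, and contact maps alone do not separate these.

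Sequences are shown for 7 maintained boundaries so that the DNA behind the values can be seen: 3 of the 5 with the lowest insulation values in control, 2 of the 5 sharpest that barely changed, and those nearest to the developmental genes SOX9 and HOXA13. Each is 100 bases of the reference genome (hg19, GRCh37) around a match to the core of the CTCF motif, written 5′ to 3′ on the strand of the match with the 12 matched bases in capitals. A relaxed core, CCANNAGNNGGC, and a stricter core, CCANNAGGGGGC, were searched on both strands; every stricter match is also a relaxed one. A match is a string of letters, not evidence that CTCF was bound. The KRT8/KRT18 sequence lies between genes, near EIF4B and the keratin genes KRT8 and KRT18, at chr12:53374733-53374832 on the minus strand. The EIF1 sequence, near EIF1, GAST and HAP1, is also between genes, at chr17:39852357-39852456 on the minus strand. The HMMR sequence, near CCNG1 and HMMR, lies in an intron of a non-coding gene, at chr5:162835596-162835695 on the minus strand. The TEDC1 sequence lies in an intron of that gene at chr14:105958153-105958252, minus strand, and the PSMC5 sequence in an exon of FTSJ3, beside the proteasome gene PSMC5, at chr17:61901412-61901511, minus strand. The SOX9 sequence, in an intron of LINC00511, belongs to the maintained boundary nearest to SOX9, at chr17:70538473-70538572 on the plus strand. The HOXA sequence lies in an intron of HOXA3, at chr7:27179274-27179373 on the plus strand.
KRT8/KRT18 boundary: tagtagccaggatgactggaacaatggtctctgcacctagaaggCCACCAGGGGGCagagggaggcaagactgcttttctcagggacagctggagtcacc
EIF1 boundary: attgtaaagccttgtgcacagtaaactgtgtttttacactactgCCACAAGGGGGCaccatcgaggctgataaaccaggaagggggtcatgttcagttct
HMMR boundary: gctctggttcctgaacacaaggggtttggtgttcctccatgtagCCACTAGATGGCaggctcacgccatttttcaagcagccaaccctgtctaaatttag
TEDC1 boundary: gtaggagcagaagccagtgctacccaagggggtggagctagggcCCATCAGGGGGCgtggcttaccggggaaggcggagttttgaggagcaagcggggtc
PSMC5 boundary: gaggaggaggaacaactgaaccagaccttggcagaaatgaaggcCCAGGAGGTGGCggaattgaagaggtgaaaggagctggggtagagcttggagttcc
SOX9 boundary: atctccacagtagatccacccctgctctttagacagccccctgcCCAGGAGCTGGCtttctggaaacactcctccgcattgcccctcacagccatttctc
HOXA boundary: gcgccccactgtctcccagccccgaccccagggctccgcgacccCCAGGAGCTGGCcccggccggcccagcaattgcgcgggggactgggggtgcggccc
The KRT8/KRT18, EIF1 and TEDC1 sequences hold the stricter core, and the others hold the relaxed core alone. Of all autosomal bins, 81.0% held a relaxed core and 13.1% a stricter core in a window of 80 kb. The matches lay between 0.677 kb (HOXA) and 24.4 kb (HMMR) from the midpoint of the called boundary.

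The strength of a boundary was expressed as an insulation value. For a 40 kb bin, contacts between the 400 kb on its left and the 400 kb on its right were divided by the number expected at the same distances on that chromosome, and this ratio was divided by the same ratio for contacts within the flanks. The log2 of the quotient is 0 where contacts cross a bin as freely as elsewhere and falls by 1 when they are halved relative to the flanks. Both maps were read at the bin of the control boundary. Of the 1768 maintained boundaries, 1468 had a value in both maps. The other 300 had none. No maintained boundary before position 15420000 of its chromosome had a value, which left out 198. The files list no contacts before position 9400001 of any chromosome, and from there to position 15420000 they list none at 119 of 150 bin positions on any autosome. An empty bin did not by itself remove a value, which is taken from the bins on either side: 10 boundaries with a value had no control contacts in their own bin. Behind a value in a maintained boundary stood a median of 206 contacts across it in control, against 402 expected, and 1137 in CTCF siRNA, against 1824 expected. The median counting error (SD) of a change was 0.12.

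Read at the bin of the control call, maintained boundaries were insulated in control and less so after CTCF siRNA. The midpoint of the CTCF siRNA call was the same at 992 of 1768 (56.1%), so a rise is favoured by this reading. Values at the CTCF siRNA calls were not compared. The control map gave the maintained boundaries a median insulation value of -1.06 (95% interval of the median -1.09 to -1.02), and the CTCF siRNA map one of -0.65 (-0.68 to -0.63). The middle 50% of the boundaries lay between -1.40 and -0.72 in control and between -0.98 and -0.40 in CTCF siRNA. The value was below 0 at 1460 of the 1468 boundaries in control and at 1435 in CTCF siRNA. Of all autosomal bins with a value, 49.02% and 41.95% were below 0. These boundaries were selected on TAD calls made from the same contacts, so the values describe them and are not a test. Lost boundaries had a median of -0.76 in control (-0.79 to -0.73) and of -0.12 in CTCF siRNA. The control median was lower at maintained than at lost boundaries on 21 of 22 autosomes.

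The change, CTCF siRNA minus control, had a median of 0.35 at maintained boundaries (0.32 to 0.38), a rise that means weaker insulation at the bin of the control call. Bins inside control TADs and at least 200 kb from any boundary of either list had a median change of -0.07 (28692 bins), and all autosomal bins with a value had one of 0.02. The value rose at 1171 maintained boundaries (79.8%, 77.6 to 81.7%), against 52.4% of all autosomal bins and 40.1% of TAD interiors. It rose by at least 0.5 at 536 (36.5%, 34.1 to 39.0%), against 12.8% of all 58685 autosomal bins, and fell by at least 0.5 at 33 (2.25%), against 3.82% of all bins. The rise exceeded the 95% counting interval of a change of 0 at 883 maintained boundaries (60.1%), where 31.4% of all bins did so, and the fall exceeded it at 140 (9.54%), where 24.7% of all bins did. The remaining 445 boundaries (30.3%) changed by less than that, as did 43.9% of all bins. Because the boundaries were chosen by calls in these maps, nothing is read from these shares.

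The spread of the change among maintained boundaries was wide. Its middle 50% ran from 0.07 to 0.65 and its middle 90% from -0.37 to 1.13. The SD over boundaries was 0.45, and 0.44 of it remained after the counting variance was subtracted. At lost boundaries the median change was 0.59 (0.57 to 0.62) and the value rose at 94.7%. Lost boundaries are those without a call in the CTCF siRNA map, which also enters the change, so a larger change there is built into the choice. The control and CTCF siRNA values of maintained boundaries had a Pearson correlation of 0.57 over 1468 boundaries. This describes boundaries of 2 maps whose neighbouring positions share contacts.

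**Figure D1:**
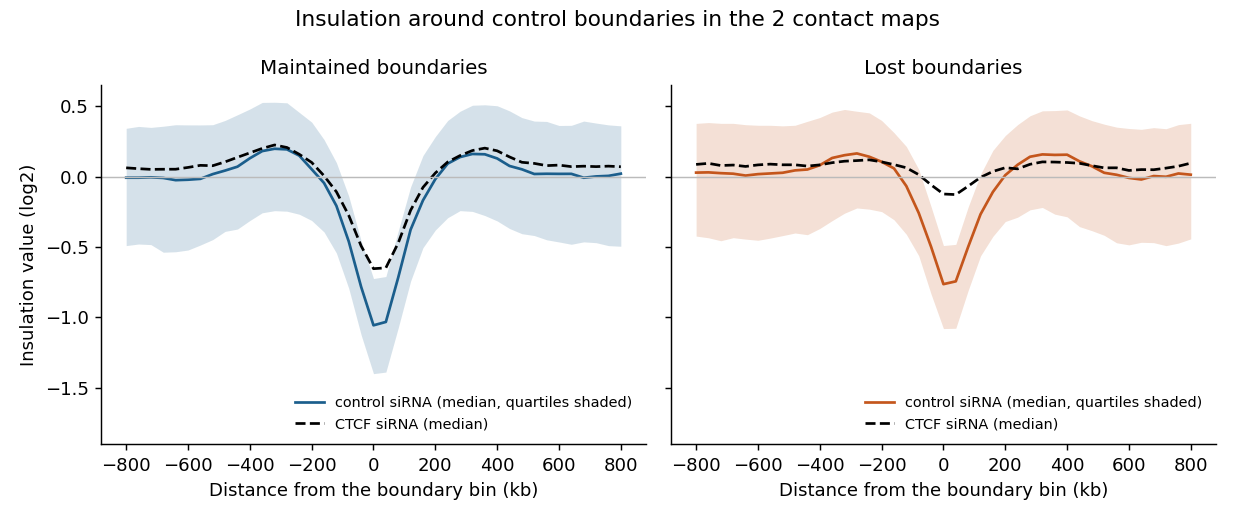
Median insulation value (log2, y axis) by distance in kb from the boundary bin (x axis) at the maintained boundaries (left) and the lost boundaries (right) with a value in both maps; solid lines are control siRNA with the quartiles shaded and dashed lines are CTCF siRNA. At maintained boundaries the dip reached -1.06 in control and -0.65 in CTCF siRNA, and at lost boundaries -0.76 and -0.12.

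**Figure D2:**
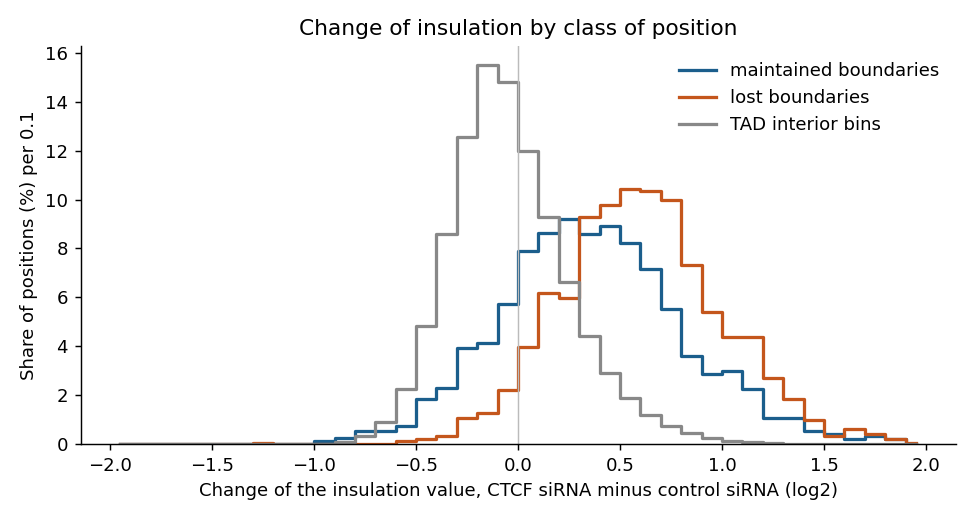
Share of positions (%, y axis, per 0.1 of change) by the change of the insulation value, CTCF siRNA minus control siRNA (log2, x axis), at maintained boundaries, lost boundaries and TAD interior bins. The medians were 0.35, 0.59 and -0.07, and the maintained boundaries overlapped both other distributions.

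The profile of insulation around the control calls of maintained boundaries kept its shape and became shallower. Its median was -1.06 at the boundary bin and -1.03 at the next bin to the right in control, and -0.65 at both in CTCF siRNA. At 200 kb on either side it had returned to between -0.02 and 0.10 in both maps. Within 5 bins of the call, the lowest control value lay in the boundary bin or its right neighbour at 70.6% of 1451 boundaries with all those values, and the lowest CTCF siRNA value at 61.5%. It lay in the same bin in both maps at 721 of them (49.7%) and at most 1 bin apart at 1061 (73.1%). TAD edges in the files stand at the middle of a 40 kb bin, and the dip was centred to the right of it, between that bin and the next one.

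Contacts across and within the flanks were also read separately. Between 80 and 200 kb, contacts across maintained boundaries were 0.535 of those expected in control and 0.727 in CTCF siRNA. Between 240 and 400 kb the ratios were 0.566 and 0.780, and between 440 and 800 kb they were 0.595 and 0.817. Relative contacts across had thus risen 1.36, 1.38 and 1.37 times in these 3 ranges. At lost boundaries they had risen 1.44, 1.41 and 1.36 times, close to the rise at maintained ones. Contacts within the flanks were also higher, from 1.119 to 1.236 of those expected between 40 and 200 kb and from 1.31 to 1.37 between 240 and 360 kb. At lost boundaries, flank contacts between 240 and 360 kb went the other way, from 1.251 to 1.104. The expected number of each map comes from its own contacts, so these are relative and not absolute amounts. It allows for distance but not for the depth of single bins. The median flank count went from 1333 in control to 5712 in CTCF siRNA at maintained boundaries and from 1251 to 4282 at lost ones. What such depth differences add to these ratios was not tested.

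Boundaries that were deeper in control were more often maintained. Control boundaries with a value were divided into 5 groups of equal size by their control insulation value. In the group from -3.96 to -1.35, 415 of 576 were maintained (72.0%, 68.3 to 75.6%). The shares were then 60.2%, 50%, 40.3% and, in the group above -0.52, 32.5% (28.8 to 36.4%). The control calls and the control values come from the same contacts, so these shares are a description and not a test. The median change of the maintained boundaries fell along the same order, from 0.69 in the deepest group to 0.43, 0.29, 0.17 and 0.01. The grouping uses the control value that enters the change, so this order is partly given by its construction. The lost boundaries, chosen for having no call in the CTCF siRNA map, had median changes of 1.14 in the deepest group and 0.34 in the shallowest, and nothing is read from that difference.

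Most maintained boundaries were called at the same place, within a limit set by the rule. Members needed a CTCF siRNA boundary within 40 kb, so shifts are small by choice and nothing is read from their size. The midpoint did not move at 992 of 1768 (56.1%, 53.8 to 58.4%), moved by at most 20 kb at 70.0% and by at most 40 kb at 1698 (96.0%). The other 70 midpoints (3.96%) moved by 60 to 100 kb; the joined interval changed width at 66 of them and kept its width at 4. Shifts went towards lower coordinates at 376 boundaries and towards higher ones at 400. The called intervals touched at 1326 boundaries and were 40 kb apart at 442. These 442, just inside the limit, had a median control value of -1.005 and a median change of 0.37. The 157 lost boundaries just outside it, with the nearest CTCF siRNA boundary 80 kb away, had a median control value of -0.90 and a median change of 0.50. These values are given as a description, since the distance and the change both come from the CTCF siRNA contacts.

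**Figure D3:**
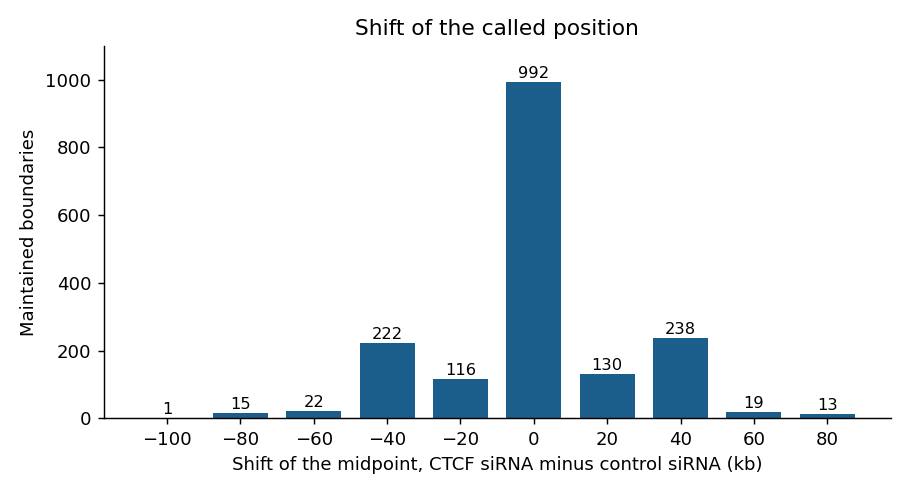
Number of maintained boundaries (y axis, bars with the count above) by the shift of the midpoint of the called interval in kb, CTCF siRNA minus control siRNA (x axis). Of 1768 midpoints, 992 did not move, 222 moved by 40 kb towards lower and 238 by 40 kb towards higher coordinates.

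A boundary between abutting TADs was more often maintained than an edge facing unassigned sequence. Facing edges were maintained at 1260 of 2189 (57.6%, 55.5 to 59.6%) and single edges at 508 of 1148 (44.3%, 41.4 to 47.1%). A wider joined interval has more sequence within the matching limit. The share was 56.3% (54.0 to 58.7%) where facing edges coincided and the interval had no width, as at a single edge. It was 61.5% where they were 40 kb apart and 62.3% at 80 kb. Facing edges that coincided made up 956 of the maintained boundaries. These went from a median of -1.15 to one of -0.65, with a median change of 0.43. Single edges had medians of -0.80 and -0.63, with a median change of 0.14. The kind of call also changed at some: 176 facing pairs in control were single edges in CTCF siRNA and 212 single edges became facing pairs.

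The control TADs beside maintained boundaries had a median size of 720 kb (680 to 760 kb; 2221 TADs), and all 2763 control TADs on autosomes also had a median of 720 kb. Both edges were maintained at 807 TADs (29.2%), 1 edge at 1414 and neither at 542. Of the 807, 617 (76.5%, 73.4 to 79.3%) were again 1 TAD in CTCF siRNA and 190 were divided or held no single TAD. The former had a median size of 680 kb in control (640 to 720 kb) and the latter of 1080 kb (1000 to 1200 kb). Over the 2831 sides of maintained boundaries with a TAD in both lists, TADs had a median of 720 kb in the control list and of 840 kb (800 to 840 kb) in the CTCF siRNA list. The TAD on a side was within 80 kb of its control size at 45.5% of them, larger by more than that at 989 (34.9%) and smaller at 554 (19.6%). The median gain among the larger ones was 600 kb.

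Along the chromosome, maintained and lost boundaries were mixed. After a maintained boundary the next control boundary was maintained at 912 of 1757 (51.9%, 49.6 to 54.2%), and after a lost one at 837 of 1558 (53.7%, 51.2 to 56.2%). Between consecutive maintained boundaries no control boundary was lost in 52.2% of the intervals, 1 was lost in 26.7% and 2 in 11.2%. The longest run without a loss held 12 boundaries. The median distance between consecutive maintained boundaries was 1120 kb.

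The share maintained differed between autosomes. It was highest on chromosome 19, with 50 of 70 (71.4%, 59.9 to 80.7%), followed by chromosomes 17 (62.8%), 16 (62.5%) and 15 (61.5%), whose intervals overlap one another. It was lowest on chromosome 4, with 85 of 211 (40.3%, 33.9 to 47.0%), and chromosome 13, with 37 of 86 (43%, 33.1 to 53.6%). Chromosome 19 carried 26.5 protein-coding start sites per Mb, chromosome 4 carried 4.05 and chromosome 13 carried 3.37. The number of CTCF siRNA boundaries available for a match differed too. It was 82 for 70 control boundaries on chromosome 19, 140 for 211 on chromosome 4 and 64 for 86 on chromosome 13. Its part in the share maintained was not tested. Over 22 autosomes the share maintained had a Pearson correlation of 0.73 with the density of coding start sites and of 0.72 with GC content. Without chromosome 19 these were 0.56 and 0.60. They are given as a description, since chromosomes differ in gene density, base composition and depth at the same time.

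Genes and sequence were not used in choosing the boundaries. Promoters were denser at maintained boundaries than over all bins. In the boundary interval and 40 kb on each side, a median of 42.0% of bases were G or C and there were 1.43 protein-coding start sites on average (GENCODE annotation on GRCh37). At least 1 start site lay in 1198 of the 1768 windows (67.8%, 65.5 to 69.9%), against 50.2% of lost boundaries, 58.0% of gained ones, 20.3% of TAD interiors and 33.4% of all bins. Windows of joined boundaries are wider, so the density is the fairer measure: 1.63 start sites per 100 kb at maintained, 1.03 at lost, 1.61 at gained boundaries and 0.72 over all bins. The density was higher at maintained than at lost boundaries on 21 of 22 autosomes, and so was GC content.

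Counted from the boundary side, the share maintained rose with the number of promoters. It was 42.2% (39.6 to 44.8%) of the 1352 control boundaries with no coding start site in the window. With 1 start site it was 54.7% (51.6 to 57.8%), with 2 or 3 it was 64.3% (60.8 to 67.6%) and with 4 or more it was 161 of 225 (71.6%, 65.3 to 77.1%). The insulation change of the maintained boundaries ran the other way, with a median of 0.42 (0.37 to 0.47) without a start site and of 0.24 (0.15 to 0.29) with 4 or more. Lost boundaries had the same order, from 0.64 without a start site to 0.40 with 4 or more. The control medians of the maintained boundaries were -1.03 and -1.22. Among these the share with a rise of at least 0.5 was 42.6% without and 23.2% with 4 or more. Wider joined intervals have both wider windows for start sites and more sequence within the matching limit. The part of width in the shares maintained was not tested.

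**Figure D4:**
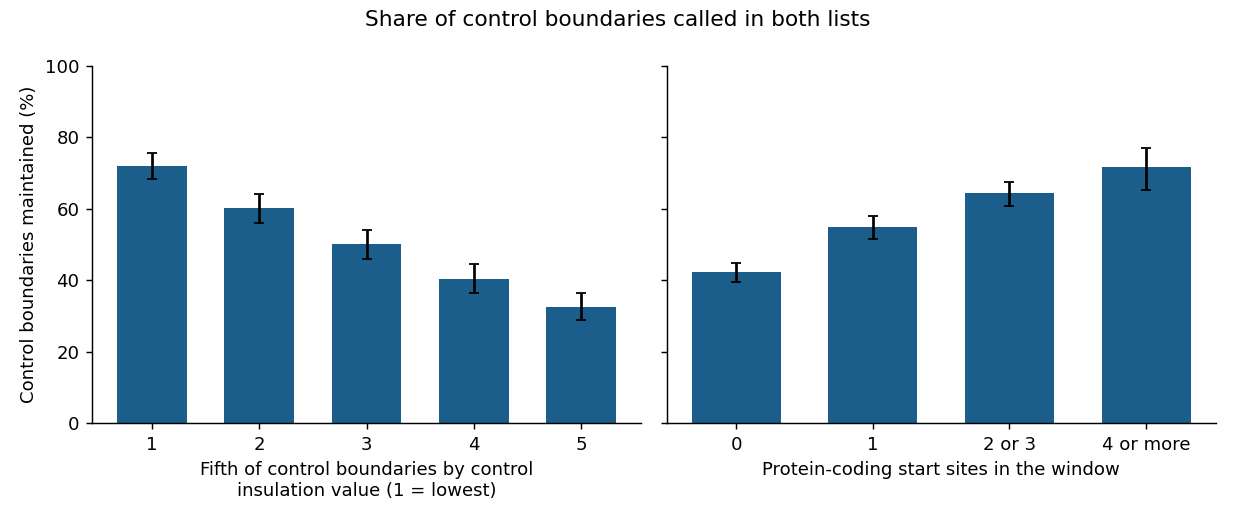
Share of control boundaries maintained (%, y axis; bars are Wilson 95% intervals) by group of control insulation value (left, 1 is the lowest value and deepest insulation) and by the number of protein-coding start sites in the boundary interval and 40 kb on each side (right). The share went from 72.0% to 32.5% across the groups on the left and from 42.2% to 71.6% on the right.

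Base composition moves with both promoters and the share maintained. Control boundaries were divided at 39.8% and 43.8% GC, which split the maintained boundaries with a value into 3 equal groups. The share maintained was 43.8% in the group lowest in GC, 58.5% in the middle and 58.5% in the highest. Within these groups, 52.5% of maintained and 31.3% of lost boundaries low in GC had a coding start site, then 70.5% and 55.8%, and 79.8% (76.5 to 82.8%) and 75.3% (71.1 to 79.1%) in the group highest in GC, where the intervals overlap. The median change of maintained boundaries was 0.44 in the lowest, 0.33 in the middle and 0.26 in the highest group, and that of lost boundaries was 0.64, 0.59 and 0.53 in the same order. The maps themselves differed with GC content: contacts in the bin of a maintained boundary were a median of 2.80 times as many in CTCF siRNA as in control in the lowest group and 6.45 times as many in the highest. In TAD interiors of the same GC ranges the median change was -0.09, -0.05 and 0.02, an order opposite to that at the boundaries. The part of this GC difference between the maps in the changes was not tested beyond the balanced counts given in the closing section.

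Matches to the CTCF core were denser at maintained boundaries than over all bins. The relaxed core was close in density to that at lost boundaries (3.46 and 3.17 per 100 kb), and the stricter core was somewhat denser than there. The relaxed core matched 3.04 times per window on average and at least once in 87.7% of windows, against 88.5% at lost boundaries and 81.0% over all bins in windows of 80 kb. The stricter core matched in 374 windows (21.2%, 19.3 to 23.1%), against 17.7% at lost boundaries, 16.1% at gained ones, 10.3% of TAD interiors and 13.1% of all bins. Per 100 kb the stricter core matched 0.30 times at maintained and 0.25 times at lost boundaries, and the density was higher at the maintained ones on 11 of 22 autosomes only. Both cores are rich in G and C. Within the 3 GC groups the relaxed core matched maintained and lost boundaries 2.101 and 2.089, 2.845 and 2.893, and 5.248 and 5.233 times per 100 kb. The stricter core matched 0.143 and 0.124, 0.187 and 0.218, and 0.539 and 0.484 times, with the lost boundaries higher in the middle group. Windows reaching 80 kb to each side held a stricter core at 34.0% (31.8 to 36.2%) of maintained and 28.5% (26.3 to 30.8%) of lost boundaries.

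Start sites and both cores peaked at maintained and at lost boundaries, to different degrees, and at gained boundaries only start sites did. From 20 kb before to 60 kb after the midpoint, coding start sites at maintained boundaries were 1.92 times as dense as 200 to 400 kb away (95% counting interval 1.83 to 2.01; 2453 start sites near). At lost boundaries the ratio was 1.33 (1.25 to 1.42) and at gained ones 1.83 (1.72 to 1.95). The stricter core had a ratio of 1.34 (1.21 to 1.49) at maintained boundaries and of 1.33 (1.17 to 1.5) at lost ones. At gained boundaries it was 0.970 (0.827 to 1.14). The relaxed core gave 1.125 (1.09 to 1.16) at maintained, 1.245 (1.203 to 1.29) at lost and 0.997 (0.955 to 1.04) at gained boundaries. The interval of maintained boundaries thus overlapped that of gained ones for promoters and that of lost ones for the stricter core, and for the relaxed core it lay between the others. In steps of 20 kb, start sites at maintained boundaries were densest in the 40 kb to the right of the midpoint, at 1.998 and 1.95 per 100 kb, on the side where the insulation dip was centred.

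**Figure D5:**
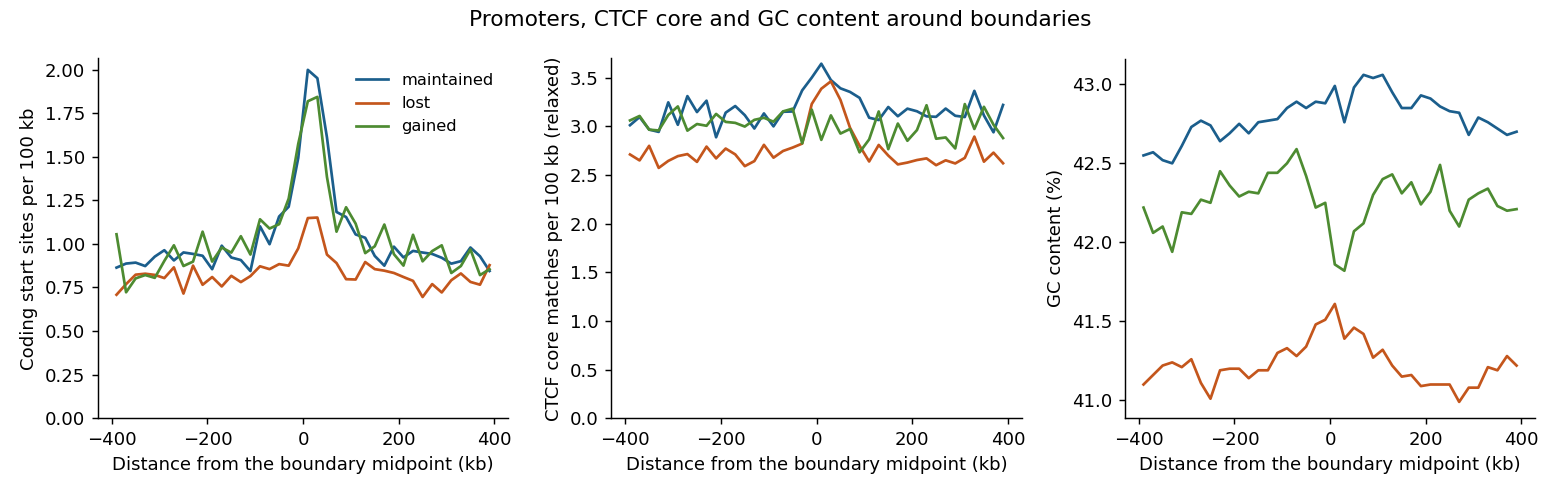
Protein-coding start sites per 100 kb (left), matches to the relaxed CTCF core per 100 kb (middle) and GC content in percent (right; the axis does not start at 0) in 20 kb steps by distance in kb from the boundary midpoint, for maintained, lost and gained boundaries. Start sites reached 1.998 per 100 kb at maintained, 1.15 at lost and 1.84 at gained boundaries, and the core was 1.125, 1.245 and 0.997 times as dense near them as 200 to 400 kb away.

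A control boundary with both a coding start site and a stricter core was maintained at 62.7% (58.2 to 67.1%), with a start site alone at 59.7% (57.2 to 62.1%), with a core alone at 45.8% (39.1 to 52.7%) and with neither at 41.5% (38.7 to 44.4%). The share differed more between boundaries with and without a start site than between those with and without a core. These intervals cover counting error only, and the boundaries were chosen by calls in these maps, so overlap is not a test. GC content and the width of the window were not held fixed. A core match is not evidence that CTCF was bound, and the separate parts of promoters and CTCF were not tested. Of the 1768 maintained boundaries, 281 held both, 917 a start site alone, 93 a core alone and 477 neither. The BglII site, where the DNA was cut, was rarer at maintained boundaries, with 23.4 sites per 100 kb against 25.8 at lost boundaries and 26.9 over all bins, and gained boundaries had 23.5.

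Gene families were counted by the start sites in these windows. Of 19222 protein-coding genes on the autosomes, 2533 (13.2%, 12.7 to 13.7%) had their start site in the window of a maintained boundary and 1393 (7.25%) in that of a lost one. For the genes of the cytosolic ribosome the count was 32 of 81 (39.5%, 29.6 to 50.4%) at 31 boundaries, among them RPL5, RPL24, RPS14, RPS19 and RPSA, and 8 were at lost boundaries, among them RPL4 and RPS26. Mitochondrial ribosomal protein genes counted 24 of 78 (30.8%, 21.6 to 41.7%), such as MRPL35 and MRPS35, and 8 (10.3%, 5.29 to 18.95%) were at lost boundaries. Subunits of the RNA polymerases, which transcribe all cellular genes, counted 11 of 33 (33.3%) with POLR2B, POLR2C and POLR3A among them, and 1 (3.03%) was at a lost boundary. Translation initiation factors, taken as all genes named EIF and a digit, counted 16 of 53 (30.2%, 19.5 to 43.5%), with EIF3A, EIF4B and EIF5A. At lost boundaries lay 6 (11.3%, 5.29 to 22.6%), among them EIF4EBP2, the gene of a factor's binding protein. Proteasome subunits, with 7 of 38 (18.4%, 9.22 to 33.4%), and the NDUF genes of respiratory complex I, with 8 of 46 (17.4%, 9.09 to 30.7%), had intervals that include the share of all genes, and 7 NDUF genes (15.2%, 7.57 to 28.2%) lay at lost boundaries.

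Some clustered families were also frequent, but at few boundaries. Of 65 clustered histone genes, which are read in S phase, 22 (33.8%) lay at 3 maintained boundaries and none at a lost one. Of 39 HOX genes, which pattern the body axis, 14 lay at 2 maintained boundaries in the HOXA and HOXB clusters, and HOXD10 to HOXD13 lay at a lost one. Genes of a cluster share a boundary, so their counts are not independent. Other large families had a smaller share at maintained boundaries than all genes. They were the odour-sensing olfactory receptors, with 14 of 414 (3.38%, 2.02 to 5.60%), the keratin and keratin-associated genes, with 3 of 149 (KRT8, KRT17 and KRT18; 2.01%, 0.687 to 5.75%), the protocadherins, with 2 of 63 (3.17%, 0.875 to 10.9%), and the zinc finger genes named ZNF, with 32 of 503 (6.36%, 4.54 to 8.84%). The intervals of the cytochromes P450, with 3 of 57 (5.26%, 1.81 to 14.4%), and of the HLA genes, with 0 of 19 (0 to 16.8%), include the share of all genes.

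Among 11 genes of CTCF and cohesin biology, SMC3, a core subunit of the cohesin ring, had its start site at a maintained boundary and PDS5A at a lost one. Of 26 androgen response genes, which this cell line is known for, CAMKK2 and MAF lay at maintained boundaries. SLC45A3 and SORD were among those at lost ones. The count is 7.69% (2.14 to 24.1%) at maintained boundaries, an interval that includes the 13.2% of all genes.

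The maintained boundaries with the lowest control values, among those with at least 50 contacts expected across, were led by one at position 22580000 to 22660000 of chromosome 15. It had 7 contacts across in control, against 204 expected, and 34 in CTCF siRNA, against 1038 expected. Its values were -3.96 and -4.24, with a counting error of 0.60 on the change of -0.27. The bin of this boundary itself held no contacts in either map, and no protein-coding gene lay within 40 kb. The next, at position 34460000 of chromosome 5, also had no protein-coding gene there and went from -2.75 to -1.64.

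At position 162860000 of chromosome 5, beside CCNG1, the gene of cyclin G1, and HMMR, a gene of the mitotic spindle, the control value was -2.66 with 87 contacts across and an expected number of 492. After CTCF siRNA 557 contacts crossed it, the expected number was 1863 and the value was -1.54, a rise of 1.115 with a counting error of 0.17. The position of this call did not move. At position 53380000 of chromosome 12, the boundary between EIF4B and the keratin pair KRT8 and KRT18, which luminal epithelial cells express, had 149 contacts across in control, fewer than the expected 411, and 2697 in CTCF siRNA, more than the expected 1796. Its value rose from -2.63 to -1.15 and its call moved by 40 kb. The value stayed below 0 because it is relative to the flanks, whose contacts exceeded the expected number by more. The bin of this boundary held 511 contacts within the chromosome in control and 2826 in CTCF siRNA. The expected number does not allow for the depth of single bins. At EIF1, GAST and HAP1 on chromosome 17 the value rose from -2.63 to -2.07 and the call moved by 60 kb. All of these 5 but the one on chromosome 15 rose by more than the 95% counting interval. The 5 were chosen for low control values, which enter the change, so a rise is favoured by the choice and nothing is read from it.

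The largest rises took deep boundaries to values above the maintained median of -0.65. The boundary beside RRP15, a ribosome biogenesis gene on chromosome 1 (position 218380000 to 218460000), went from -2.28 to -0.39, a rise of 1.90 with a counting error of 0.18. That beside CBLN2, a synaptic organiser gene on chromosome 18 (position 70340000), went from -2.41 to -0.52. The calls of these 2 moved by 40 kb, so their CTCF siRNA values were not taken at the boundary called there. At position 151140000 of chromosome 5, beside the stress granule gene G3BP1 and the copper chaperone gene ATOX1, contacts across numbered 130 in control, against 492 expected, and 2202 in CTCF siRNA, against 1863 expected. The value rose by 1.86, from -2.50 to -0.64, and the call stayed at the same position. The bin of this boundary held 722 contacts within the chromosome in control and 4536 in CTCF siRNA, and the expected number does not allow for such depth. A boundary on chromosome 8 went from -1.98 to -0.19 and one at position 81100000 of chromosome 7 from -2.19 to -0.40, both without a protein-coding gene within 40 kb and both at the same position in the 2 lists.

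The largest falls were at boundaries that became sharper. At position 41380000 of chromosome 17, beside TMEM106A and the autophagy receptor gene NBR1, the value fell from -1.73 to -2.65, a change of -0.91 with a counting error of 0.13. There 156 contacts across were counted in control, against 403 expected, and 606 in CTCF siRNA, against 2444 expected. Beside VPS13C, a lipid transfer protein gene on chromosome 15, the change was -0.90, from -0.77 to -1.67. Beside IMMT and MRPL35, both of the mitochondrion, on chromosome 2, it was -0.85. Beside PPP3CA, the gene of a calcineurin subunit on chromosome 4, it was -0.83. The last of the 5, beside NPIPB3 on chromosome 16, changed by -0.80, and its own bin held 1 contact within the chromosome in control and 2 in CTCF siRNA. In this it is unlike the typical maintained boundary, whose bin held 332 and 1343.

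The sharpest boundaries were also listed among those chosen for a change of at most 0.1, so that their values stayed alike by choice. At position 61900000 of chromosome 17, beside PSMC5, a subunit of the proteasome cap, and FTSJ3, an rRNA processing gene, the control value of -2.05 became -2.03, with 113 contacts across against 403 expected and 781 against 2444 expected. The change was 0.02 with a counting error of 0.15. At position 105980000 of chromosome 14, beside TMEM121 and TEDC1, the values were -2.32 and -2.31. At position 26100000 of chromosome 6, inside the largest histone gene cluster and next to the iron regulator HFE, they were -2.11 and -2.08. Bins of the remaining 2, beside ZNG1B on chromosome 2 (-2.51 and -2.56) and NBPF10 on chromosome 1 (-2.07 and -1.98), held 20 and 6 control contacts within the chromosome. ZNG1B and NBPF10 belong to families with near-identical copies, where reads can be hard to place.

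Genes of prostate biology and of known domain structure had maintained boundaries at varied distances. TMPRSS2, an androgen-regulated protease gene, lay 83.0 kb from a maintained boundary near MX1 whose value went from -0.54 to -0.28, and its flanking TADs of 360 and 440 kb had the same sizes in both lists. FOXA1, a pioneer factor of the androgen receptor, lay 45.3 kb from a boundary that became sharper, from -0.999 to -1.70, a change of -0.70 with a counting error of 0.15. CCND1, the gene of cyclin D1, lay 24.1 kb from a boundary that went from -0.95 to -0.67. KLK3, which encodes prostate-specific antigen, lay 738 kb from its nearest maintained boundary, whose value went from -0.92 to -1.04, a difference of -0.12 with a counting error of 0.10. Unlike at TMPRSS2, flanking TADs went from 360 and 1880 kb to 1880 and 1600 kb at the FOXA1 boundary. At the CCND1 boundary they went from 600 and 160 kb to 1320 and 160 kb. At the KLK3 boundary they went from 1520 and 1680 kb to 200 and 1680 kb. For FKBP5 and SLC45A3 the nearest control boundary was a lost one. FKBP5 lay 684 kb from the nearest maintained boundary, and that of SLC45A3 had no value.

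SHH, a morphogen gene, lay 45.2 kb from a maintained boundary that rose from -1.79 to -0.70, by 1.09 with a counting error of 0.12. In the HOXA cluster the boundary at position 27180000 of chromosome 7, among HOXA4, HOXA5 and HOXA6, was 59.7 kb from HOXA13 and went from -1.65 to -1.22, with 167 contacts across against 384 expected in the control map and 1036 against 1623 in the other. Its call did not move. The nearest maintained boundaries were farther from SOX9 (423 kb), EPHA4 (1041 kb) and HOXD13 (1663 kb), for which the nearest control boundary had been lost. They rose by 0.66, 0.50 and 0.50. Near H19 and IGF2 a boundary at position 2180000 of chromosome 11, 154 kb from H19, was called at the same place in both lists. It lies before position 9400001, so no insulation value was available.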

How the data were processed

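Hi-C libraries of LNCaP cells were analysed from the files the authors deposited. Per the methods and the submitters' processing notes, reads were checked with FastQC 0.11.2, mapped to hg19 with Bowtie 1.1.0 through HiCUP, sorted with SAMtools 1.2 and tagged for duplicates with Picard 1.121, and the libraries of a condition were pooled into 40 kb bins. The authors called TADs from each pooled map with a directionality index and a hidden Markov model. The deposited contact values are read-pair counts multiplied by a factor for each bin, which differed from 1 only between positions 9400001 and 48120000. Factors were estimated from the values and divided out, and 100.00% of the testable values in both maps then came out whole; random remainders would give 2.28% and 2.40%. The tolerance was 0.0101 and a further 0.05% of each value, and testable values were those in which 1 read pair was worth over 4 times that tolerance. The control map held 26174660 contacts, 52.2% of them within a chromosome, and the CTCF siRNA map 87657884, with 64.2%.

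The recovered counts were analysed in Python 3.11.15 with numpy 2.4.6. Groups follow the siRNA named in the sample labels. Bins entered where, in each map, they held at least 10% of the median number of contacts within that chromosome, and an insulation value needed 50% of the bin pairs. The counting SD of a value came from the contact counts across and within the flanks. Shares carry Wilson 95% intervals and medians carry 95% intervals from binomial order statistics; all cover counting error only, and PCR copies not recognised as duplicates would make them too narrow. Gene starts came from GENCODE version 44 on GRCh37, 1 entry per symbol, and sequence from GRCh37. Older histone and other symbols were matched through RefSeq synonyms.

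Genes named were those at the 5 maintained boundaries with the lowest control value, the largest rise, the largest fall and the lowest control value among changes of at most 0.1, each with at least 50 contacts expected across in control, and the maintained boundaries nearest to a list of landmark genes, some of which are not reported here. Up to 3 protein-coding genes overlapping the interval and 40 kb on each side were considered. Sequences overlapping an untranslated region were not shown. The members and lists were chosen with earlier results of these data known. The insulation step was tested on simulated data with known boundaries. Chromosomes X and Y were left out by the rule. Alternatives varied how boundaries were joined and matched, the flank, the weighting of counts, coverage and windows.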

Additional observations from a re-analysis of the deposited data

How the results depend on the processing

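No paired analysis was possible because only pooled maps and TAD lists, 1 of each per condition, were analysed, and for the same reason no library could be left out. The share maintained was 39.7% if only touching boundaries counted, 57.7% with a limit of 80 kb and 60.7% when facing edges were joined within 400 kb, and the number of maintained boundaries was 1326, 1925 and 1742. Joining edges only where they coincide gave 1982 boundaries, a share of 51.8%. The share whose call did not shift was 75% when nearest edges were compared instead of midpoints. The median control insulation value was -0.91 with flanks of 800 kb, -0.997 with balanced counts and -1.105 without neighbouring bins. With balanced counts the median change was 0.29 and the share with a rise of at least 0.5 was 32.9%; without neighbouring bins that share was 39.0%. Under the other alternatives (flanks of 200 kb, deposited values, the left bin, a 25% coverage minimum and, for the change, thinning of CTCF siRNA contacts to the control depth) these 3 values stayed within their 95% intervals, and the median change was 0.29 to 0.36 over all alternatives. At lost boundaries the median change was between 0.49 and 0.63. Balancing, chosen for the GC groups after the data were seen, gave median changes of 0.43, 0.30 and 0.20 from the lowest to the highest GC group. The boundary bin alone held 0.699 coding start sites and 1.41 relaxed core matches per maintained boundary, windows reaching 80 kb to each side held 2.40 start sites, and the stricter core matched 0.261 times per window. TADs of at most 3 Mb kept a median of 720 kb, and GC content was 41.8% in the boundary bin. The cause of these differences was not tested.

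With 1 map per condition, the spread between cultures is unknown and no difference has a replicate check. The CTCF siRNA map was deeper and differed from the control in GC dependence, and what either did to the authors' TAD calls was not tested. No maintained boundary in the first 15420000 bases of a chromosome had an insulation value, and a call is placed to within a 40 kb bin.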
